A study of Triticum aestivum with 4 samples.

Results

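PsbO and PsbP of photosystem II, the Calvin cycle kinase PRK, the fructose bisphosphatase FBP and the glyceraldehyde phosphate dehydrogenase GAPN were compared between flag leaves of control wheat plants and of plants given a short heat treatment. These 5 genes were chosen by name: a probe set belonged when its annotated gene carried, as symbol or as gene table synonym, the name PsbO (OEE1), PsbP (OEE2), PRK, FBP or GAPN. They are 5 of the 771 genes in the annotation and 5 of the 102 that have a name beyond a LOC number. They were read by 7 probe sets, 2 each for PsbP and FBP and 1 each for PsbO, PRK and GAPN. Many probe sets of the array have no gene name in the annotation, so further copies of these genes may be on it under probe sets that cannot be named here.

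RNA came from flag leaves, the uppermost leaves, of the bread wheat cultivar TAM 107 at 10 days after pollination, when grain is filling. The plants had grown in the field and were potted shortly before flowering. There were 2 control arrays from plants under normal conditions and 2 arrays from plants given 1 h at 40 °C in a growth chamber. A like move of the control plants is not stated, so moving and heat cannot be told apart. Nothing says that the replicates of a group were separate plants, so every p-value here measures array-to-array spread only, and that spread may be technical. In whole leaves, fewer cells of a type and less RNA per cell cannot be told apart either.

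Photosystem II takes electrons from water at a manganese cluster on the inner side of the thylakoid membrane. PsbO shields and steadies this cluster, and PsbP helps it hold its calcium and chloride ions; both are made in the cytosol from nuclear genes and imported into the chloroplast. In the Calvin cycle PRK makes ribulose bisphosphate, the molecule to which Rubisco adds carbon dioxide. Fructose bisphosphatase removes a phosphate from fructose bisphosphate, in a chloroplast form within the Calvin cycle and in a cytosolic form on the way to sucrose. The gene table lists pre-FBPase as a synonym of FBP, and neither it nor the probe annotation says which form the probe sets read. GAPN oxidises glyceraldehyde phosphate to phosphoglycerate in the cytosol and yields NADPH. It is not an enzyme of carbon fixation, so it stands beside the other 4 genes as a user of the triose phosphate that the chloroplast exports.

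Values are MAS5 signals, 1 number per probe set and array on a linear scale, which the authors had scaled to a common array level. The array median was 82.5 and 78.9 in control and 76.9 and 71.9 in heat. Log2 signals correlated at 0.979 between the control arrays and at 0.977 between the heat arrays, across probe sets, which are not independent. Of 61179 probe sets, the 30590 with a mean log2 signal of at least 6.11 were tested, heat minus control, with limma and Benjamini-Hochberg adjustment at a threshold of 0.05. Across them 4339 were called higher in heat, 14.2% of those tested, and 6993 were called lower, 22.9%; after median centring the split was 5033 higher and 4958 lower. Of the 4 named green leaf markers, rbcL and the members PRK, PsbP and PsbO, the brightest probe set of each had a mean signal of 32960 or more in both groups. The signals of the 9 named grain marker genes summed to 8537 and 8633 in control and to 8545 and 8462 in heat. Nearly all of this came from the avenin-like gene ALP (7920 in control, 7817 in heat). Adjusted p in limma was 0.384 or more for each of the 4 tested, and the others were too dim to test. The pattern for pollen and flower markers caught only PIMT, a protein repair enzyme and no floral gene, so flowers were not checked.

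Of the 7 probe sets, 6 were bright enough to test. Among them 3 were higher in heat, those of PsbO and PsbP, 2 were lower, those of FBP and GAPN, and that of PRK did not pass. The array-wide shares to read these counts against are 14.2% higher and 22.9% lower. At the brightness of PsbO and PsbP, however, 53.8% of the 500 most similar probe sets were called higher. The median log2 fold change of the 6 was 0.24, against -0.15 over all tested probe sets. The signals of the 2 groups did not overlap for any of the 6, which held for 69.1% of all tested probe sets.

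PsbO (gene ID LOC543291) was read by a probe set whose name has the suffix _a_at, which marks probes that can match several transcripts of a gene. Its signal was 31570 and 34351 in control and 41869 and 42209 in heat. Both heat arrays lay above both control arrays, and they differed from each other by far less than the control arrays did. PsbO rose 1.28-fold (log2 0.35 ± 0.06 SE, 95% interval 0.22 to 0.48, n = 2 arrays per group, adjusted p = 0.00208 in limma).

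PsbP (LOC543290) was read by a pair of probe sets of different brightness. The brighter one gave 41469 and 45900 in control and 55318 and 55351 in heat. The dimmer one, whose suffix _x_at marks possible cross-hybridisation, gave 29566 and 31771 in control and 40733 and 40282 in heat. On both probe sets the heat arrays lay together and above the control arrays. PsbP rose 1.27-fold on the brighter probe set (log2 0.34 ± 0.06 SE, 95% interval 0.20 to 0.48, adjusted p = 0.0032 in limma) and 1.32-fold on the other (0.40 ± 0.05 SE, 0.28 to 0.53, adjusted p = 0.000843). The intervals overlap for most of their length, and the difference between the 2 probe sets was not tested.

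PRK (LOC543283) was read by 1 probe set at 42306 and 46983 in control and 51281 and 47432 in heat. The groups did not overlap, but only 0.014 on the log2 scale parted the lower heat array from the higher control array, against 0.15 between the control arrays and 0.11 between the heat arrays. PRK stood at log2 0.15 ± 0.07 SE, with a 95% interval of -0.011 to 0.30 and adjusted p = 0.132 in limma. As a fold change the interval runs from 0.992 to 1.23, while that of PsbO runs from 1.17 to 1.40. These intervals overlap, but both probe sets were read on the same arrays, so the overlap does not compare the 2 changes. Single arrays moved the PRK value both ways. Without control replicate 2 PRK passed, at log2 0.22 (adjusted p = 0.0425 in limma), whereas without control replicate 1 it was 0.070 (adjusted p = 0.452) and without heat replicate 1 it was 0.089 (adjusted p = 0.495).

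FBP was read by its brighter probe set at 11776 and 10718 in control and 9010 and 8105 in heat. Every heat value was below every control value, and the gap between the groups, 0.25 on the log2 scale, was wider than the 0.14 and 0.15 between replicates. FBP fell 1.31-fold (log2 -0.39 ± 0.07 SE, 95% interval -0.56 to -0.23, adjusted p = 0.00425 in limma). Its second probe set gave 2.73 and 39.5 in control and 4.30 and 5.83 in heat, below the signal of 69.1 at which probe sets were tested. The 2 control values of that probe set span those of the heat arrays, so it says nothing about the direction of FBP.

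GAPN was read by 1 probe set at 7493 and 6981 in control and 5586 and 5403 in heat. The heat arrays lay below the control arrays by a gap of 0.32 on the log2 scale, against 0.10 between the control arrays and 0.048 between the heat arrays. GAPN fell 1.32-fold (log2 -0.40 ± 0.06 SE, 95% interval -0.54 to -0.26, adjusted p = 0.00163 in limma). The gene ID given for this probe set was not found in the gene table, which lists the symbol GAPN under another ID.

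**Figure D1:**
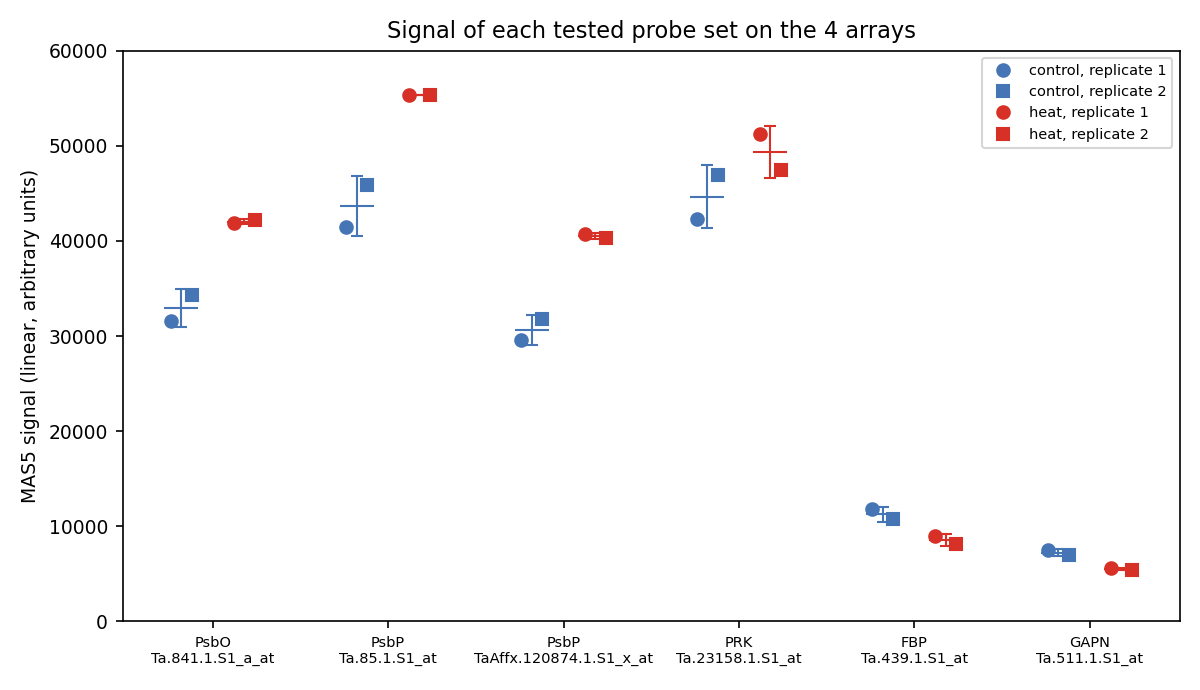
MAS5 signal (linear axis from 0) of each of the 6 tested probe sets on the 4 arrays, with control in blue and heat in red, replicate 1 as circles and replicate 2 as squares; horizontal ticks are group means and bars are SD (n = 2). The heat points lie above the control points for PsbO and both PsbP probe sets, barely above them for PRK (47432 against 46983 at the nearest; below 0 as a log2 change after cyclic loess or quantile normalization) and below them for FBP and GAPN.

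The calls of all 5 probe sets rested on how limma estimated the spread. They passed where the prior spread followed brightness, but without that trend their adjusted p was between 0.0615 and 0.0948, and with unmoderated t statistics between 0.0878 and 0.169. With 2 arrays against 2, an exact two-sided permutation test cannot give a p below 0.333, so single values were not tested that way.

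The members differed in how they varied between replicates. From control replicate 1 to control replicate 2, PsbO differed by log2 0.12, the PsbP probe sets by 0.15 and 0.10 and PRK by 0.15, whereas FBP and GAPN differed by -0.14 and -0.10. Between the control arrays, too, the probe sets that rose in heat thus differed in sign from those that fell. The 500 probe sets nearest in brightness to PsbO, PsbP and PRK had a median difference of 0.085 between the control arrays. Those nearest to FBP and GAPN had 0.037 and 0.028. The part of this replicate difference in the heat comparison was not tested. Between the heat arrays the differences were 0.012 for PsbO, 0.00087 and -0.016 for PsbP, -0.11 for PRK, -0.15 for FBP and -0.048 for GAPN. There the neighbours had a median difference of 0.0064 for PsbO, PsbP and PRK, 0.013 for FBP and 0.017 for GAPN. In size, the difference between heat arrays was smaller than that between control arrays for each tested member probe set but that of FBP. The neighbour medians were also smaller between the heat arrays. They are medians of signed differences and do not measure spread. Over all tested probe sets the median replicate SD of log2 signal was 0.12 in heat and 0.10 in control.

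Each change was then set beside probe sets of like brightness, the 500 tested ones nearest in mean log2 signal, with the members left out. This mattered because the median log2 fold change moved with brightness, from -0.27 at signals of 172 to 207 to 0.098 in the brightest of 20 classes, at 6994 and above. In that brightest class 42.4% of probe sets were higher and 24.8% lower. The comparison is a description, with no test.

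**Figure D2:**
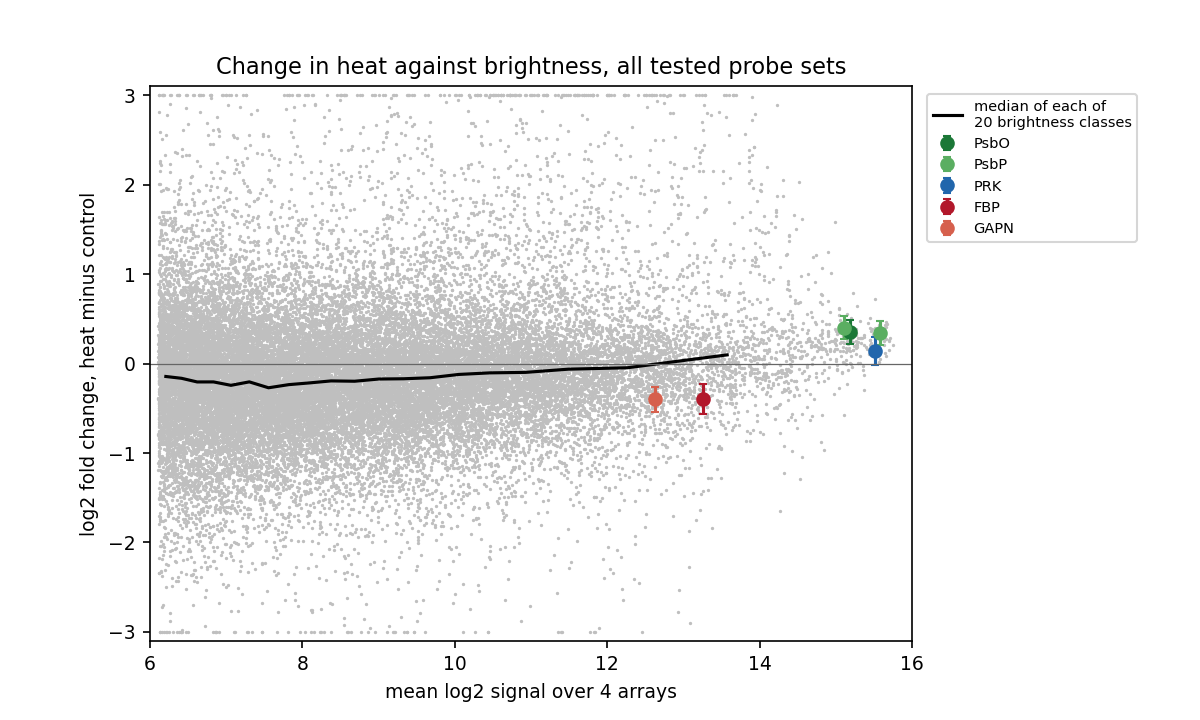
Log2 fold change, heat minus control, against mean log2 signal over the 4 arrays for all 30590 tested probe sets (grey, drawn at 3 or -3 where larger in size), with the median of 20 classes of brightness as a black line and the members in colour with 95% intervals from limma. PsbO, PsbP and PRK sit at the far right, where the line lies above 0, and FBP and GAPN sit below the line.

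PsbO, PsbP and PRK are so bright that 1 neighbourhood serves all of them, signals of 16235 to 55380. Over the 61179 probe sets the brighter PsbP probe set ranked 18 by mean signal, PRK 24, PsbO 85 and the other PsbP probe set 106. Most of their 500 neighbours are therefore dimmer than they are. These neighbours had a median log2 fold change of 0.20 (quartiles -0.065 and 0.38), and 53.8% of them were called higher and 15% lower. Of the 500, 138 had a larger fold change than PsbO, 143 than the brighter PsbP probe set and 113 than the other. PsbO exceeded the median of its neighbours by 0.16, and the PsbP probe sets exceeded it by 0.15 and 0.21. PsbO and the brighter PsbP probe set thus lay under the upper quartile of their neighbours and the dimmer one just over it. PRK stood at -0.051 from the median, with 286 neighbours above it.

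A tighter neighbourhood gave similar medians but changed the place of 2 probe sets. PsbO (0.352) and the brighter PsbP probe set (0.343) then lay just over the upper quartile, 0.341, and not under it. Among the 200 nearest, the median was 0.23 for PsbO, PRK and both PsbP probe sets, and 63.0% to 64.5% were called higher. A larger fold change than that of PsbO was seen in 23.5% of them, than that of PsbP in 24.5% (brighter probe set) and 17.0%, and than that of PRK in 70.5%. The highest signals on the arrays were 52311 and 52772 in control and 62439 and 62032 in heat. The brighter PsbP probe set (55318 and 55351 in heat) and PRK (51281 and 47432 in heat) were not far below them. Whether signals this high still follow the amount of RNA was not tested.

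FBP and GAPN stood lower than most probe sets like them. The 500 neighbours of FBP, at signals of 8071 to 11892, had a median log2 fold change of 0.036, and 32.2% of them were called lower and 35.4% higher. FBP stood at -0.43 from that median, and 90 of the 500 had a lower value. The 500 neighbours of GAPN, at 5606 to 7085, had a median of -0.032, with 33.6% called lower and 31.2% higher. GAPN stood at -0.36 from it, and 92 of the 500 had a lower value. Both values lay below the lower quartile of their neighbours (-0.29 and -0.31).

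**Figure D3:**
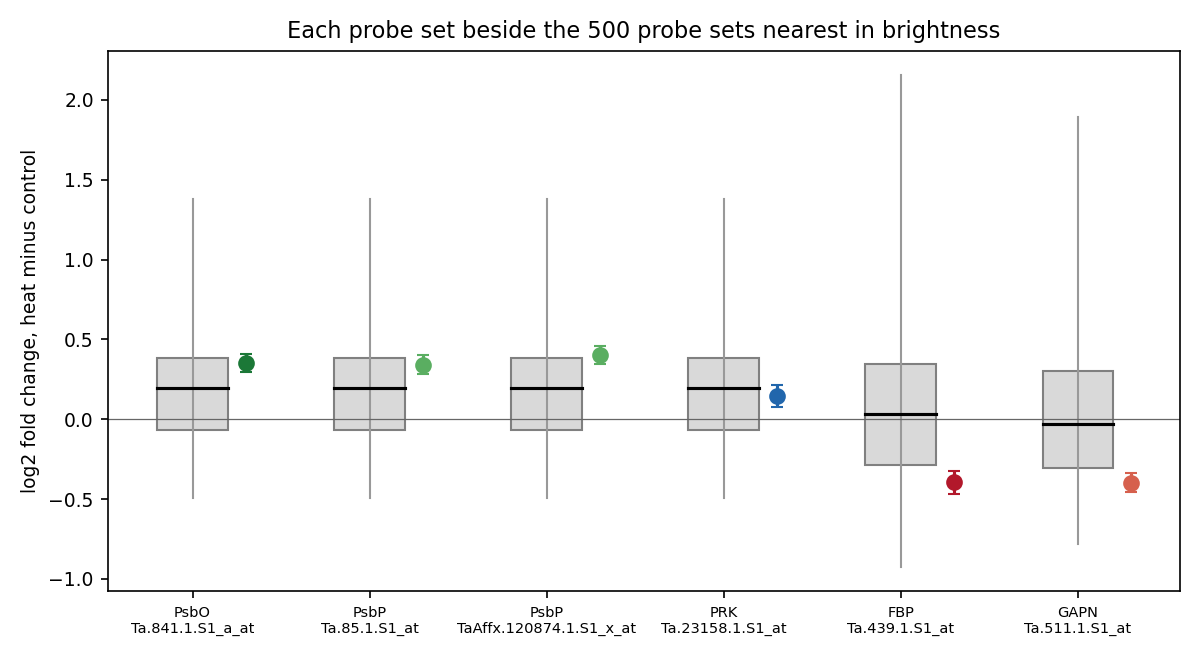
Log2 fold change of each tested probe set (coloured points, bars are SE from limma) beside the 500 tested probe sets nearest to it in brightness (box, 25th to 75th percentile; black line, median; grey line, 5th to 95th percentile). PsbO and PsbP lie in the upper part of the box or just over it, PRK close to the median, and FBP and GAPN below the box.

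The order of probe sets within each array does not depend on a scaling factor, so it was read as a further view. By signal the brighter PsbP probe set ranked 30 and 22 in control and 18 and 16 in heat, and PsbO 114 and 111 in control against 87 and 79 in heat. The other PsbP probe set ranked 144 and 137 in control and 101 and 102 in heat. PRK moved the other way, from 25 and 16 in control to 31 and 45 in heat, although its signal was no lower. FBP went from 749 and 899 to 1247 and 1412, and GAPN from 1385 and 1553 to 2141 and 2224. These ranks describe signals of different probe sets and not the amounts of their transcripts.

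Ratios between members within an array are also free of such a factor. Relative to FBP, PsbO changed by log2 0.75 from control to heat, a 1.68-fold shift, with SDs of 0.18 in control and 0.12 in heat (n = 2 each). The brighter PsbP probe set changed by 0.74 relative to FBP, and PRK by 0.54 (1.45-fold). Relative to GAPN the shifts were 0.75 for PsbO, 0.74 for PsbP and 0.54 for PRK. In each of these 6 ratios both heat arrays lay above both control arrays. That was fixed in advance, as the signals of the members already parted in opposite directions, so it adds nothing to them. PsbO changed by 0.0093 relative to the brighter PsbP probe set, FBP by 0.0021 relative to GAPN and PsbO by 0.21 relative to PRK. Less its control mean, the log2 ratio of PsbO to PRK was 0.015 and -0.015 in control and 0.14 and 0.27 in heat. That parting of the groups was not fixed in advance. The dimmer PsbP probe set had the larger log2 fold change, 0.40 against 0.35 for PsbO. These differences between members were not tested. Scalings that depend on brightness moved the ratios to FBP and GAPN. The shift of PsbO relative to PRK changed little, to 0.22 after quantile normalization and 0.23 after cyclic loess. For the brighter PsbP probe set relative to PRK it was 0.20 as deposited and 0.19 after either. After quantile normalization and cyclic loess the shift of PsbO relative to FBP was 0.68 and 0.61, and that of PRK relative to GAPN was 0.38 and 0.34. The shift of FBP relative to GAPN turned to -0.087 and -0.040, and that of PsbO relative to the brighter PsbP probe set became 0.029 and 0.038.

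The scaling of the arrays decided how large the rises were, and for PRK the direction. The deposited scaling left a median fold change of -0.15 over all tested probe sets; median centring moved this median by 0.12, cyclic loess by 0.13, quantile normalization by 0.084 and scaling on polyA spike controls by 0.067. PsbO kept its call under all 4, at log2 0.47 with median centring, 0.42 with spike scaling, 0.13 with cyclic loess and 0.10 with quantile normalization. It missed the threshold when quantiles were averaged on the linear scale (log2 0.095, adjusted p = 0.0519), an alternative chosen after the data were seen.

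The dimmer PsbP probe set also kept its call under the 4 scalings, from 0.52 with median centring to 0.13 with quantile normalization. The brighter one lost its call with cyclic loess (0.092, adjusted p = 0.0585) and quantile normalization (0.068, adjusted p = 0.149). PRK was above 0 with median centring (0.26) and spike scaling (0.21) and below 0 with cyclic loess (-0.10) and quantile normalization (-0.12), and passed in none of them. FBP and GAPN were lower past the threshold under all 4, from -0.28 (both, median centring) to -0.59 for FBP and -0.50 for GAPN (quantile normalization).

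**Figure D4:**
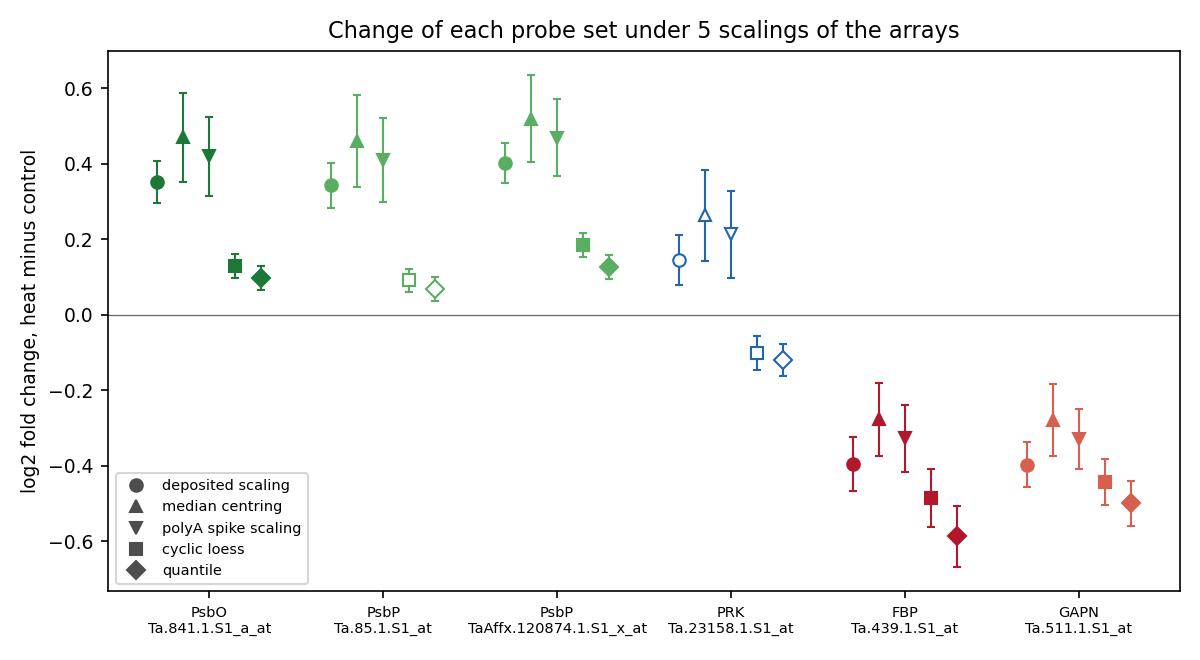
Log2 fold change, heat minus control, of the 6 tested probe sets under 5 scalings of the arrays (symbols; bars are SE from limma), filled where the adjusted p was below 0.05 and open where it was not. Values for PsbO and PsbP shrink towards 0 under cyclic loess and quantile normalization, PRK changes sign (above 0 as deposited, below 0 under cyclic loess and quantile normalization), and FBP and GAPN stay below 0.

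Other genes of photosynthesis and carbon metabolism were taken from a list of name patterns, which caught 5 genes besides the members. Of these, 4 had a tested probe set, and on the brightest one 2 were higher in heat and 2 did not pass. Their median log2 fold change was 0.082. This count is close to the background at such brightness, where 53.8% of the 500 neighbours of PsbO were called higher, against 14.2% over the array. The gene caught by the pattern atpA also carries the invertase name IVR1 and was too dim to test.

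The Rieske iron-sulphur protein petC, which passes electrons within the cytochrome complex between the photosystems, had signals of 33495 and 36058 in control and 38620 and 39830 in heat. It rose by log2 0.17 ± 0.05 SE (adjusted p = 0.0412 in limma), close to the median of 0.20 at its brightness. Its call was lost under all 4 other scalings, and its sign turned with quantile normalization (-0.078) and cyclic loess (-0.047).

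The phosphoglycerate kinase Pgk-1, of an enzyme that serves the Calvin cycle and glycolysis, had overlapping groups, at 24393 and 26400 in control and 23995 and 26418 in heat. It stood at log2 -0.011 ± 0.07 SE (adjusted p = 0.912). Trx-M, a chloroplast thioredoxin of the kind that passes reducing power to chloroplast enzymes in the light, also overlapped, at 32418 and 35856 in control and 31437 and 33227 in heat. It stood at -0.077 ± 0.06 SE (adjusted p = 0.383). Both lay below the medians at their brightness (0.18 and 0.20), and both were lower past the threshold with quantile normalization (-0.36 and -0.38) and cyclic loess (-0.19 and -0.29). Median centring put them at 0.11 and 0.041.

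The probe sets assigned to rbcL, the large subunit of Rubisco, which is normally encoded in the chloroplast genome, went in both directions. There were 28 of them, and 12 were bright enough to test. Of the 12 tested, 2 were higher and 7 lower, with log2 fold changes of -2.08 to 0.72, and the 2 that were higher were the brightest. The names of those 2 have the suffix _x_at, which marks possible cross-hybridisation. The brightest of the 7 lower ones (mean 11479 in control, 4366 in heat) has the suffix _s_at, which also marks shared probes. Over all tested probe sets the shares were 14.2% higher and 22.9% lower, and they moved with brightness.

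The named gene whose pattern over the 4 arrays was most like that of each member was found by distance. For both PsbO and PsbP, out of 66 named genes tested, it was LTP3, a lipid transfer protein, with signals of 15056 and 15835 in control and 19717 and 20033 in heat. The distance, over 4 log2 values each less its own mean, was 0.037 for PsbO and 0.058 for PsbP. For PRK it was TCTP, the translationally controlled tumour protein homologue, at 0.083. For GAPN it was the beta-tubulin Tubb4 at 0.13. For FBP it was ATI, at 0.16, which had signals of 69.4 to 97.5 and did not pass (log2 -0.35, adjusted p = 0.517). With 4 arrays in 2 groups such likeness reflects little more than a similar fold change.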

How the data were processed

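Signals of 4 single-colour Affymetrix wheat arrays were analysed. Per the submitters' processing notes, the authors used Affymetrix Expression Console 1.1 and MAS5, with settings not given in the sources used here. All deposited values are linear signal intensities, with a trimmed mean of 500.1 on each array. Their log2 went without further normalization into limma 3.58.1 (R 4.3.3), as a two-sided test from lmFit and eBayes with an intensity trend. Of 61290 probe sets, 111 AFFX controls were left out; those at or above the median brightness were tested. The fit was tried on simulated data drawn from its own variance model with independent noise. Such data check the code and cannot speak to the scaling or to the kind of replicate. The fit has 2 residual and 5.45 prior degrees of freedom. Detection calls were not used; the number of arrays limits the precision, and fold changes near the dim end are uncertain.

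Names came from the old platform annotation and the RefSeq gene table of IWGSC CS RefSeq v2.1, which held 4 of the 5 member gene IDs. No genome build is tied to the values, so no coordinates are given. Wheat is polyploid, so a probe set can read several gene copies. All member probe sets, the tested genes caught by the name patterns and the nearest named gene by pattern are named. Members and lists were chosen with earlier results of these data known. Alternatives covered scaling, filters, offset, variance model, replicate block, shared probe sets and each array left out.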

Additional observations from a re-analysis of the deposited data

How the results depend on the processing

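Over 17 alternatives, 5 of the 6 tested member probe sets kept their direction in each that gave them a value; PRK turned with quantile normalization (log2 -0.12 on the log2 scale, -0.12 on the linear scale) and cyclic loess (-0.10), and the cause was not tested. The count of called members (5 as reported) was 3 with quantiles on the linear scale and 3 without shared probe sets, where 4 were left to test. It was 0 in limma without the intensity trend (5 at an unadjusted p under 0.05) and 0 with unmoderated t statistics (4 at an unadjusted p under 0.05). Leaving out one array in turn gave 5 to 6. Over all tested probe sets 11332 were called, 2593 with unmoderated t statistics and 6906 without shared probe sets (24227 tested); leaving out one array gave 7663 to 10681. With the replicate number as a block, 11603 probe sets and 5 members were called; the pairing changed no member's call, the numbers mark no stated shared plant or day, and same-numbered arrays did not deviate together (correlation 0.011 across probe sets). Against probe sets of like brightness PRK moved from -0.051 to 0.032 with neighbours taken by the control mean, 0.0042 after quantile normalization and 0.0027 without shared neighbours. Over these choices PsbO stayed 0.12 to 0.24 above the median of its neighbours, PsbP 0.096 to 0.23 and 0.18 to 0.29, while FBP was at -0.50 to -0.35 and GAPN at -0.45 to -0.28.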
